A study of Mus musculus with 24 samples.

Results

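Bone marrow cells of wild-type (WT) mice were compared after 4 and after 3 days in culture with RANKL, the cytokine that drives osteoclast formation. The comparison used 6 of the 24 RNA-seq samples of a mouse study, chosen by genotype and day: 3 WT samples at day 3 and 3 at day 4. WT mice 480, 529 and 531, females aged 10 to 12 weeks, each gave 1 sample per day, so the replicate is the mouse and the samples pair by animal. Marrow was expanded with M-CSF, the growth factor of monocytes and macrophages, and then received 10 ng/mL RANKL with 20 ng/mL M-CSF. Part of the medium was renewed at day 2, wells were pooled before RNA was taken, and the factors and doses were the same on both days. Cells deficient in STING, the adaptor of cytosolic DNA sensing, from 3 other mice (KO mice 481, 528 and 532) under the same RANKL and M-CSF gave the same 2 days for comparison. Which STING allele these mice carry is not given in the sources used here.

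Osteoclasts are giant cells that form when monocyte and macrophage precursors fuse. RANKL signals through its receptor RANK and through immunoreceptor (ITAM) adaptors to switch on Nfatc1, the master transcription factor of the lineage. The mature cell seals off a patch of bone, pumps acid into it through a vacuolar proton pump (V-ATPase) and a chloride channel, and secretes lysosomal proteases that digest collagen. A culture of this kind also holds mononuclear macrophages that have not fused. In bulk RNA, fewer cells of a type and less RNA per cell cannot be told apart.

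The deposited values were FPKM, fragment counts scaled by transcript length and library size, whose sum over the 6 samples ran from 482038 to 537906. Osteoclast markers were present at both days: Acp5 alone made up 1.78% to 1.93% of the summed FPKM at day 3 and 3.63% to 3.77% at day 4. The absolute depth of sequencing cannot be read from such values. Steps between neighbouring low values put the day 3 sample of mouse 531 at 0.688 of the depth of the day 3 sample of mouse 480, and the other 4 between 0.893 and 1.003. The targeted gene of the comparison strain, Sting1 (listed as Tmem173), lay between 3.38 and 5.01 FPKM in these 6 WT samples. In the 6 KO samples it lay between 2.65 and 3.79 FPKM, so the ranges overlapped and it checks the labels weakly at these days.

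From day 3 to day 4, genes of macrophages, class II antigen presentation, lysosomes and bone resorption rose. Genes of mitosis, DNA replication and protein synthesis fell, as did the transcription factor genes Nfatc1, Fos and Myc. Of 9502 genes tested on log2(FPKM + 1) with limma, 3449 (36.3%) passed an adjusted p of 0.05, 1687 upward (17.8%) and 1762 downward (18.5%). Most steps were small. The median called rise was 0.42 and the median called fall 0.36 on the log2 scale, 2442 called genes changed by less than 0.5, and the median over all genes was -0.01. Rises of at least 1 on the log2 scale outnumbered such falls, 117 against 18. In 3430 of the called genes all 3 mice moved the same way. Without mouse 480 the count of called genes was 2221. The called shares of the fusion, osteoclast transcription factor, RANK and ITAM signalling, sealing zone, cell death, cell cycle exit, immediate early, oxidative stress and citric acid cycle lists lay near these background shares in both directions, so their counts below describe single genes more than lists.

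**Figure D1:**
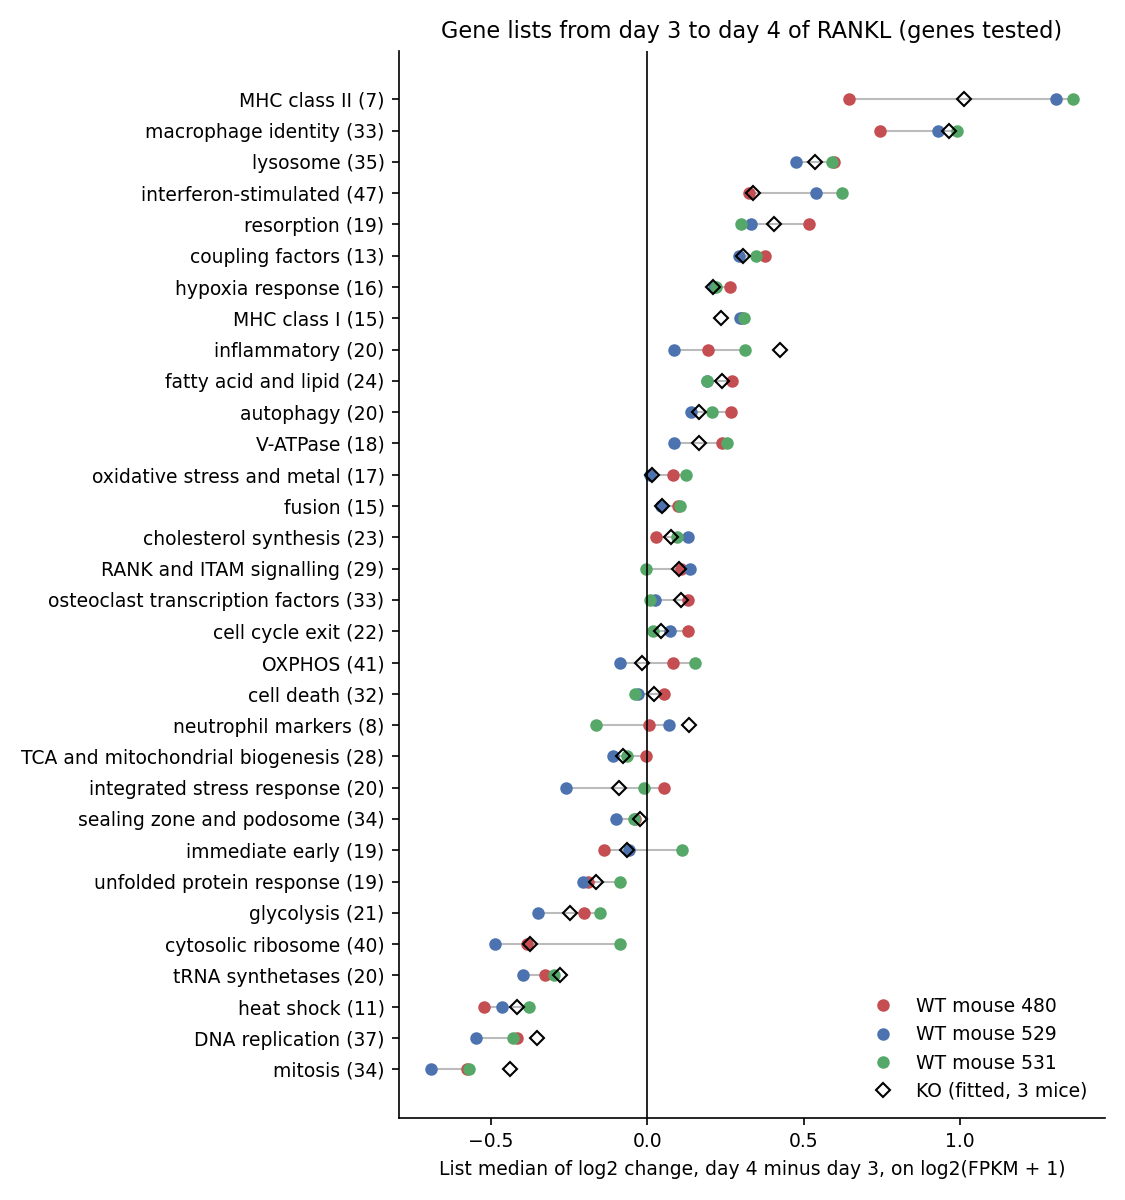
Median log2 change from day 3 to day 4 of gene lists with at least 7 tested genes, for each WT mouse (filled circles) and for the fitted KO change (open diamonds). The number of tested genes stands beside each list name, the MHC class II and macrophage lists lie farthest to the right, and the mitosis list lies farthest to the left.

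Macrophage genes rose almost throughout. Of 33 tested genes of macrophage identity, 32 rose and 1, the monocyte antigen gene Ly6c2, fell, a call lost without mouse 529 or mouse 531. The list's median was 0.94, against -0.01 over all genes. C1qa, a subunit of the complement starter C1q, measured 6.79, 16.2 and 19.0 FPKM in mice 480, 529 and 531 at day 3 and 23.9, 76.4 and 87.9 FPKM at day 4. Every day 4 sample was above every day 3 sample, and mouse 480 was the lowest on both days. The log2 change was 2.00 (SE 0.10, limma adjusted p = 2.02e-06). C1qb and C1qc, the other subunits of the same complex, rose by 1.90 and 1.80 on the log2 scale (limma adjusted p = 3.43e-06 and 2.85e-06).

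Mrc1, the mannose receptor that takes up glycoproteins, went from 1.57, 5.06 and 4.23 FPKM to 8.89, 21.2 and 16.0 FPKM in the same mice. All 3 day 4 values lay above all 3 day 3 values, with a log2 change of 1.84 (limma adjusted p = 9.64e-07). Apoe, a lipid carrier, went from 120, 160 and 121 FPKM to 445, 551 and 556 FPKM, with no overlap between the days. Its log2 change was 1.95 (SE 0.10, limma adjusted p = 2.10e-06). The C-type lectins Clec4n and Clec7a, which bind fungal glycans, rose by 1.63 and 1.65 on the log2 scale (limma adjusted p = 9.64e-07 and 3.20e-06). Csf1r, the receptor for M-CSF, rose by 0.38 (limma adjusted p = 0.0152), and this call was lost without mouse 480 (adjusted p = 0.283). Its log2 change without that mouse was 0.35.

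Most of these genes stayed below their level before RANKL. In 28 of the 32 macrophage genes that rose, the mean at day 4 was below the mean at day 0, where C1qa averaged 347 FPKM and Mrc1 124 FPKM. Averaged over the list, log2(FPKM + 1) was 6.57 to 6.94 at day 0 and 3.55 to 3.83 at day 2. It was 3.52, 4.04 and 3.99 in mice 480, 529 and 531 at day 3 and 4.40, 5.12 and 5.02 at day 4. From day 2 to day 3 the list's median change had been 0.10. Over all called rises, 910 of 1687 (53.9%) had a higher mean at day 0 than at day 4.

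Markers of other blood cells were checked alongside. The summed FPKM of the 20 neutrophil genes (17 in the table) lay between 83.8 and 182 at day 3 and between 79.1 and 174 at day 4. Of the 8 neutrophil genes tested, 1 rose, the collagenase gene Mmp8 (0.83, limma adjusted p = 6.80e-05). The 10 B cell genes in the table summed to at most 1.2 FPKM and the 2 T and NK cell genes to at most 0.808 FPKM in any of the 6 samples, and none of these was abundant enough to be tested. The dendritic cell list summed to between 8.85 and 12.4 FPKM at day 3 and between 17.6 and 24.1 FPKM at day 4. Of its 4 tested genes 2 rose, the integrin gene Itgax by 1.03 and the transcription factor gene Irf8 by 1.07 on the log2 scale (limma adjusted p = 2.73e-05 and 7.85e-05). In the stromal list (at most 2.22 FPKM in sum) the proteoglycan gene Dcn was the tested gene and fell by 0.49. In the erythroid, mast cell and megakaryocyte list (15.5 to 42.4 FPKM in sum) it was the platelet chemokine gene Pf4, which rose by 0.62. Both of these calls failed without the mouse pairing (limma adjusted p = 0.0557 for Dcn and 0.132 for Pf4). The part of changing cell proportions in the macrophage rise was not tested.

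Class II antigen presentation genes, which display peptides to helper T cells, rose with the macrophage genes: 6 of 7 tested members were called and the median was 1.10. All 6 had a higher mean at day 0 than at day 4. H2-Aa, a chain of the class II molecule, measured 7.46, 5.64 and 5.32 FPKM at day 3 and 16.0, 27.2 and 24.7 FPKM at day 4 in mice 480, 529 and 531. Mouse 480 started highest and ended lowest, and the days did not overlap. The log2 change was 1.71 (SE 0.17, limma adjusted p = 9.76e-05). H2-Ab1, the partner chain, rose by 1.34 and Cd74, the invariant chain that guides class II to endosomes, by 1.16 on the log2 scale (limma adjusted p = 3.06e-05 and 8.03e-05). The list's median change was 0.64 in mouse 480 against 1.31 and 1.36 in the other two. Class I genes moved less: 8 of 15 rose, none fell, and the median was 0.24, with H2-T23 at 0.46, the peptide editor Tapbp at 0.48 and H2-M3 at 0.44. Without mouse 480, 3 of the class I genes were called. Reads of near-identical H2 genes may have been shared between them, so single values in this family are uncertain.

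Most lysosomal genes rose. Of 35 tested, 30 rose, none fell, and the median was 0.57. Without mouse 480 the count was 18. Of the 30 rises, 17 had a higher mean at day 0 than at day 4, against 910 of 1687 over all called rises. Averaged over the list, log2(FPKM + 1) was 8.24 to 8.62 at day 0 and 8.03 to 8.12 at day 4. Glb1, the lysosomal beta-galactosidase, went from 111, 124 and 115 FPKM to 232, 207 and 211 FPKM with no overlap, a log2 change of 0.89 (SE 0.09, limma adjusted p = 8.46e-05). Lgmn, an asparaginyl protease, and Man2b1, an alpha-mannosidase, rose by 0.84 and 0.68 on the log2 scale (limma adjusted p = 6.80e-05 and 0.000106). Of 20 autophagy genes 7 rose and none fell, with the conjugation factor Atg12 at 0.64, Map1lc3b (the LC3 of autophagosome membranes) at 0.60 and its relative Gabarapl1 at 0.45. Of 18 V-ATPase subunit genes 5 rose and none fell, the median was 0.18, and without mouse 480 the count was 2. Atp6v0a1, the a1 isoform of the membrane sector, went from 8.89, 11.3 and 11.1 FPKM to 15.3, 21.9 and 21.0 FPKM (0.83, limma adjusted p = 5.46e-05). Its mean at day 0 was 129 FPKM. Atp6v0d2, the d2 isoform tied to osteoclasts, was far more abundant at days 3 and 4. It measured 1136, 1201 and 1098 FPKM at day 3 and 1316, 1255 and 1281 FPKM at day 4. Its log2 change of 0.17 did not pass (limma adjusted p = 0.307).

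Most of the resorption machinery continued upward. Of 19 tested resorption genes 12 rose, none fell, and the median was 0.42. Without mouse 480 the count was 3. Calcr, the calcitonin receptor of mature osteoclasts, measured 30.5, 38.5 and 39.4 FPKM at day 3 and 106, 105 and 91.9 FPKM at day 4. The days were far apart and the mice of each day close together, with a log2 change of 1.46 (SE 0.10, limma adjusted p = 1.17e-05). Acp5, the tartrate-resistant acid phosphatase used to stain osteoclasts, measured 8936, 9557 and 8584 FPKM at day 3 and 19502, 18174 and 19528 FPKM at day 4. The ranges did not overlap, the ratio of means was 2.11, and the log2 change was 1.08 (SE 0.26, limma adjusted p = 0.00883). Ctsk, the collagen-digesting cathepsin K, went from 7733, 7382 and 6964 FPKM to 13481, 11135 and 11598 FPKM (0.71, limma adjusted p = 0.0345). Mmp9, a gelatinase, went from 6175, 6315 and 5855 FPKM to 12355, 9627 and 9442 FPKM (0.77, limma adjusted p = 0.0219). In both genes every day 4 value lay above every day 3 value. The calls of these 3 very abundant genes did not hold without mouse 480 (adjusted p = 0.381 for Acp5, 0.532 for Ctsk and 0.507 for Mmp9) or without the filter on low values (0.0530, 0.116 and 0.0789). Their log2 changes without mouse 480 were still 1.06, 0.66 and 0.65, with fewer mice in the fit. In Acp5 mice 480, 529 and 531 changed by 1.13, 0.93 and 1.19. The SE also draws on genes of similar abundance, so it is not the spread between these mice alone.

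Itgb3, the beta3 integrin of the sealing zone, measured 146, 138 and 135 FPKM at day 3 and 309, 216 and 188 FPKM at day 4. Mouse 480 rose most, the days did not overlap, and the log2 change was 0.73 (limma adjusted p = 0.000869). Mmp12, the macrophage elastase, rose by 1.17 (limma adjusted p = 8.54e-06) after a change of -0.46 from day 2 to day 3 (limma adjusted p = 0.0207). It thus reversed rather than continued, and its mean was 30.3 FPKM at day 4 against 96.9 FPKM at day 0. Car2, the carbonic anhydrase that supplies protons, rose by 0.31 (limma adjusted p = 0.0167), a call lost without mouse 480 (adjusted p = 0.301). Its log2 change without that mouse was 0.24. The wider cytoskeletal list of the sealing zone and podosomes, the actin-rich adhesions of osteoclasts, was mixed: 5 of 34 tested genes rose and 8 fell, with a median of -0.07. Without mouse 480 the counts were 3 and 5, and without mouse 529 the falls numbered 5. Besides Itgb3, its rises included the membrane-actin linker Marcks at 0.85 and the integrin Itgb5 at 0.69.

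**Figure D2:**
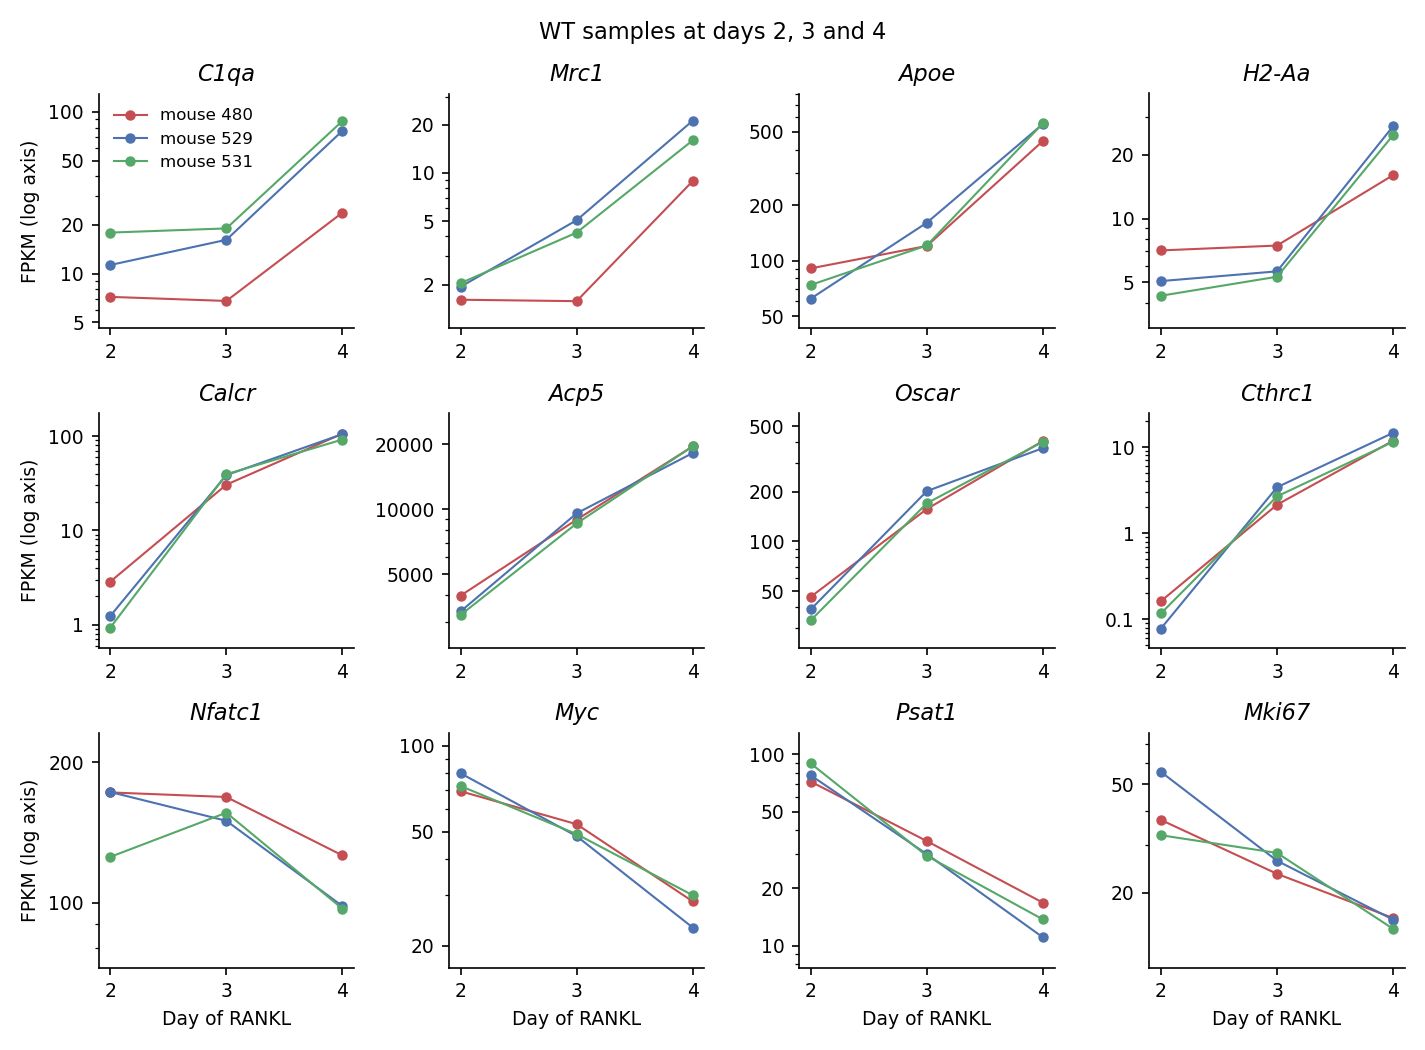
FPKM on logarithmic axes of 12 genes in each WT mouse at days 2, 3 and 4 of RANKL, 1 line per mouse. C1qa and H2-Aa changed little between days 2 and 3 and rose by day 4, Calcr and Acp5 climbed at both steps, and Nfatc1, Myc, Psat1 and Mki67 were lower at day 4 than at day 3 in all 3 mice.

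Fusion genes showed no common direction: 4 of 15 rose, 3 fell, and the median was 0.08. Dcstamp, the membrane protein without which precursors do not fuse, measured 403, 366 and 361 FPKM at day 3 and 486, 384 and 430 FPKM at day 4. The ranges overlapped and the log2 change of 0.20 did not pass (limma adjusted p = 0.127). It passed when days 3 and 4 of both genotypes shared 1 fit (adjusted p = 0.0335). Ocstamp, its companion in fusion, went from 268, 228 and 221 FPKM to 222, 158 and 178 FPKM, lower in each mouse although the ranges overlapped slightly. It fell by 0.37 on the log2 scale (limma adjusted p = 0.00842), a call lost without the mouse pairing (adjusted p = 0.0570). The tetraspanins Cd81 and Tspan7 rose by 0.83 and 0.77, and the metalloprotease gene Adam8 fell by 0.54 (limma adjusted p = 7.25e-05, 0.000128 and 0.000743). The Cd81 call did not hold without the mouse pairing (adjusted p = 0.0618).

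Among genes that receive and relay the RANKL signal, the receptor itself was not called while an ITAM-coupled receptor rose. Tnfrsf11a, which encodes RANK, measured 47.0, 43.0 and 45.4 FPKM at day 3 and 48.1, 44.0 and 39.4 FPKM at day 4 (log2 change -0.05, SE 0.08, limma adjusted p = 0.662). Oscar, an ITAM-coupled collagen receptor, rose from 157, 202 and 170 FPKM to 407, 368 and 402 FPKM, with no overlap (1.15, limma adjusted p = 6.47e-05). Trem2, a lipid receptor that signals through the same kind of adaptor, rose by 0.68 (limma adjusted p = 0.000245). Lilrb3, an inhibitory paired receptor whose reads may be shared with the activating Pira genes, rose by 0.52 (limma adjusted p = 0.000550). Over the list of RANK and ITAM signalling, 7 of 29 rose, 3 fell, and the median was 0.07. Without mouse 480, 4 rose and 1 fell.

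Nfatc1 measured 169, 150 and 156 FPKM at day 3 and 126, 98.4 and 97.1 FPKM at day 4. All day 4 values were below all day 3 values, the mean fell by 32.1%, and the log2 change was -0.56 (SE 0.08, limma adjusted p = 0.00067). Fos, an AP-1 subunit needed to induce Nfatc1, went from 243, 122 and 129 FPKM to 96.0, 73.9 and 83.5 FPKM, with mouse 480 far above the others at day 3. Its log2 change was -0.89 (limma adjusted p = 0.000506). Myc, a growth regulator induced early by RANKL, went from 53.1, 48.3 and 49.0 FPKM to 28.5, 23.1 and 29.997 FPKM (-0.86, limma adjusted p = 6.75e-05). Mitf, a partner of Nfatc1 at resorption genes, was named here after its values were seen and fell by 0.84 (limma adjusted p = 8.46e-05). Among the 33 tested osteoclast transcription factors and repressors 9 rose and 4 fell, these 4 being Nfatc1, Fos, Myc and Mitf. Genes that rose included Id3, an inhibitor of basic helix-loop-helix factors (0.98), the myeloid factor Cebpa (0.86) and Irf8, a repressor of osteoclast formation (1.07).

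Proliferation genes fell without exception in the mitosis list: 34 of 34 tested members were called lower, with a median of -0.59 and a range from -0.92 to -0.37. Mki67, the proliferation antigen, measured 23.5, 26.2 and 28.0 FPKM at day 3 and 16.2, 16.0 and 14.8 FPKM at day 4. The days did not overlap and the log2 change was -0.69 (limma adjusted p = 0.000246). Ube2c, which tags mitotic cyclins for destruction, went from 74.9, 80.0 and 71.6 FPKM to 39.8, 32.5 and 47.5 FPKM (-0.92, limma adjusted p = 0.000268). The spindle kinase Aurka, the checkpoint kinase Bub1 and cyclin Ccna2 fell by 0.90, 0.81 and 0.69 on the log2 scale (limma adjusted p = 4.51e-05, 6.61e-05 and 8.91e-05). Of 37 DNA replication genes 32 fell and none rose (median -0.46), led by the ribonucleotide reductase subunits Rrm2 (-0.88) and Rrm1 (-0.60) and the helicase subunit Mcm6 (-0.60). In the cell cycle exit list 4 of 22 rose and 4 fell, among them the G1 kinase Cdk6 (-0.73) and cyclin Ccnd1 (-0.52) downward and the stress-induced Gadd45a (0.60) upward. Without mouse 529 the rises of that list numbered 2.

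Genes that serve protein synthesis fell too. Of 20 cytosolic tRNA synthetase genes, which charge tRNAs with amino acids, 18 fell and none rose (median -0.34), with Vars at -0.54, Kars at -0.48 and Gars at -0.47. Of 11 heat shock genes 9 fell and none rose (median -0.41), with the chaperones Hsp90aa1 at -0.73, Hsph1 at -0.69 and Hspd1 at -0.54. Of 40 cytosolic ribosomal protein genes 19 fell and none rose (median -0.30). That count rested on which mice were included: 1 without mouse 480, 8 without mouse 529 and 38 without mouse 531. Rps2, Rps18 and Rpl14 fell by 0.64, 0.47 and 0.43, and the calls of Rps18 and Rpl14 were lost without mouse 480 (adjusted p = 0.0917 and 0.165). Without that mouse the log2 changes of Rps18 and Rpl14 were -0.44 and -0.37. Ribosomal protein genes have many processed pseudogenes, so reads may be split and single values are uncertain.

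The integrated stress response list went both ways. Of 20 tested members 9 fell and 5 rose, and without mouse 480 the rises numbered 3. Psat1, an enzyme of serine synthesis, went from 35.2, 30.1 and 29.5 FPKM to 16.8, 11.1 and 13.7 FPKM with no overlap (-1.15, SE 0.08, limma adjusted p = 1.69e-05), and the amino acid transporter Slc7a5 fell by 0.85 (limma adjusted p = 0.00021). Atf3, a stress-induced transcription factor, went from 3.59, 5.80 and 4.99 FPKM to 11.6, 20.0 and 18.6 FPKM (1.60, limma adjusted p = 2.10e-06). Its mean at day 0 was 211 FPKM, and all 5 rises of the list had a higher mean at day 0 than at day 4. Over all called rises this held for 910 of 1687. In the unfolded protein response list 2 of 19 rose, the degradation factor Herpud1 (0.46) and the chaperone Dnajb9 (0.43), and 7 fell, including Creld2 (-0.36). Without mouse 480 none of its genes was called lower, and without mouse 529 the falls numbered 3.

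Energy metabolism moved in parts. Of 21 glycolysis and lactate genes 11 fell and 3 rose (median -0.23), and the falls numbered 5 without mouse 480 and 6 without mouse 529. The hexokinase Hk3 and the lactate carrier Slc16a1 fell by 0.54 and 0.67, while Ldhb, the heart-type lactate dehydrogenase, went from 133, 133 and 121 FPKM to 286, 239 and 259 FPKM (1.01, limma adjusted p = 4.08e-05). Few respiratory chain genes were called, 2 of 41 upward and 3 downward, with a median of 0.04. Leaving out 1 mouse gave 1 to 2 upward and 0 to 5 downward. The mitochondrial creatine kinase Ckmt1, which buffers energy, went from 11.9, 8.22 and 7.37 FPKM to 29.1, 17.2 and 16.8 FPKM (1.09, limma adjusted p = 1.34e-05). Tfrc, the transferrin receptor for iron uptake, went from 336, 268 and 277 FPKM to 520, 570 and 485 FPKM (0.84, limma adjusted p = 0.000338), and Ppargc1b, a coactivator of mitochondrial biogenesis, fell by 0.41 (limma adjusted p = 0.00192). In their list of the citric acid cycle and mitochondrial biogenesis 3 of 28 rose and 4 fell, and without mouse 480 or mouse 529 the falls numbered 2. Among lipid genes 11 of 24 rose and 4 fell, with the fatty acid carriers Fabp4 and Fabp5 at 1.53 and 0.89, and without mouse 529 the falls numbered 2. Of 23 cholesterol synthesis genes 6 rose, with the sterol sensor Insig1 at 0.75 and the reductase Tm7sf2 at 0.62, and without mouse 529 the rises numbered 3. The mean at day 0 was above that at day 4 in 8 of the 11 lipid rises and in all 6 cholesterol rises. Over all called rises this held for 910 of 1687. Fabp4 averaged 283 FPKM at day 0 against 9.08 FPKM at day 4, and Fabp5 840 against 79.2 FPKM. In the hypoxia list 7 of 16 rose, among them Ndrg1 (0.67) and the pyruvate dehydrogenase kinase Pdk1 (0.61), and 1 fell.

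Secreted and signalling genes added to the rises. Of 13 coupling factors, signals from osteoclasts to bone-forming cells, 8 rose and 1 fell, and without mouse 480 the counts were 5 and 0. Cthrc1, which promotes bone formation, went from 2.14, 3.41 and 2.68 FPKM to 11.8, 14.6 and 11.5 FPKM with no overlap (1.87, SE 0.09, limma adjusted p = 9.64e-07). The growth factor Igf1 rose by 1.18 and the complement protein C3 by 0.77, the latter not passing without the mouse pairing (limma adjusted p = 0.0948). Igf1 averaged 206 FPKM at day 0 against 27.1 FPKM at day 4. Of the 8 coupling factor rises 3 had a higher mean at day 0 than at day 4, against 910 of 1687 over all called rises. Of 20 inflammatory genes 10 rose and 4 fell, with the chemokine receptor Cxcr4 at 1.18, Ccl6 at 0.99 and Cxcl16 at 0.69, whose call was also lost without the pairing (limma adjusted p = 0.0662). In 8 of these 10 rises the mean at day 0 was above that at day 4, as for Ccl6 with 485 against 20.0 FPKM. Cell death genes went both ways, 9 of 32 up and 8 down, with the p53 targets Sesn1 and Pmaip1 each at 0.81. Without mouse 480 the counts were 5 and 5, and without mouse 529 they were 8 and 4. Of 19 immediate early genes 3 rose and 4 fell, with the phosphatase gene Dusp5 at -0.74. Without mouse 529 the rises numbered 1, and without mouse 531 the falls numbered 9. Of 17 genes of oxidative stress and metal handling 4 rose, including Osgin1 (0.46), and 3 fell, including the metallothionein Mt2 (-0.69) and the glutathione reductase Gsr (-0.36). Without mouse 480 the rises of that list numbered 2.

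Most interferon-stimulated genes, the antiviral programme downstream of STING and other sensors, rose from low levels. Of 47 tested 37 rose and 2 fell, with a median of 0.50. The falls numbered 0 without mouse 529 and 4 without mouse 531. Ifi27l2a measured 6.19, 15.8 and 13.4 FPKM at day 3 and 17.6, 31.0 and 50.1 FPKM at day 4, against a mean of 680 FPKM before RANKL. The days did not overlap, and the log2 change was 1.38 (SE 0.14, limma adjusted p = 8.46e-05). Sp100, a nuclear body protein, and Ifi204, a DNA-binding protein whose reads may be shared with near-identical neighbours, rose by 0.93 and 0.97 (limma adjusted p = 0.00014 and 0.000147). Of the 37 genes that rose, 33 had a higher mean at day 0 than at day 4. The list's median was 0.33, 0.54 and 0.62 in mice 480, 529 and 531. Its summed FPKM was 688, 825 and 757 in these mice at day 3 and 676, 813 and 1043 at day 4. The sum, which the most abundant members dominate, thus rose in mouse 531 only.

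Among called genes that reached 5 FPKM and moved the same way in all 3 mice, the rises were led by Sepp1 (now Selenop), the plasma selenium carrier, at 2.29. It went from 17.5, 37.8 and 30.9 FPKM to 71.6, 206 and 176 FPKM with no overlap (limma adjusted p = 9.64e-07). The paired membrane proteins Tmem176b and Tmem176a followed at 2.08 and 2.04, then Ifitm1, an interferon-induced membrane protein, and Hpgd, which degrades prostaglandins, both at 2.00. Msln, the surface protein mesothelin, went from 7.70, 12.2 and 12.6 FPKM to 32.0, 43.5 and 47.2 FPKM (1.83), and Aif1, an actin-binding macrophage protein, rose by 1.75. Among the 15 largest falls under the same conditions were Bcl2l15, a Bcl2 family member, at -1.40, Mgst2, which conjugates glutathione, at -1.19, the serotonin transporter Slc6a4 at -1.14 and the urokinase Plau at -1.13. Bcl2l15 went from 6.20, 5.88 and 4.94 FPKM to 2.34, 0.926 and 1.51 FPKM, and Mgst2 from 29.7, 26.4 and 24.5 FPKM to 11, 10.8 and 11.7 FPKM. Neither gene's days overlapped. Larger fitted falls, down to -8.23, were seen in genes outside these conditions, several of them listed at 0 in single samples. Further large falls were Rnf183 (-1.12), Cyp2s1 (-1.10), Rpl26 (-1.08), Ankrd2 (-1.05), Parvg (-1.03), Dyrk3 (-0.96) and Mad1l1 (-0.93).

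Promoter sequences of gene groups that moved together were compared for short motifs, searched on both strands in the 250 bases before each RefSeq start (GRCm38.p6). Shares of promoter windows below refer to the 32851 windows of that length in the same table. CCAAT, the core bound by the factor NF-Y, occurred in 81.2% of the windows of mitosis genes against 33.8% of all windows, and TTTGAA, the core of the cell cycle homology region of late cell cycle genes, in 34.4% against 16.0%. By gene, among tested genes with a promoter, CCAAT occurred in 80.0% of mitosis genes against 41.0%, and TTTGAA in 33.3% against 12.8%. Of the 5 class II genes with a promoter, 4 held CCAAT, against 41.0% of the 7678 tested genes with one. CTGATTGG, the longer form on the opposite strand of that element, occurred in 2 of the 5, against 6.5% of tested genes. In lysosomal genes CACGTG, the E-box core read by factors of the Mitf and Tfeb family, occurred in 32.3% of windows against 6.0% of all, and its extended palindrome TCACGTGA, which contains it, in 12.9% against 0.8%. The difference was smaller by gene among tested genes with a promoter. There CACGTG occurred in 35.7% of lysosomal genes against 10.3%, and TCACGTGA in 14.3% against 1.9%. In V-ATPase genes the same 2 motifs occurred in 12.5% and 6.2% of windows, which is 2 and 1 of 16. By gene these were 2 of 12 (16.7%, against 10.3% of tested genes) and 1 of 12 (8.3%, against 1.9%).

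The core of the interferon-stimulated response element (GAAA, any 2 bases, then GAAA) occurred in 36.4% of the windows of interferon-stimulated genes against 3.0% of all. By gene the shares were 43.2% against 3.2% of tested genes. TGATGNAA, the core read by Atf4 with its partners, occurred in 23.1% of tRNA synthetase windows (3 of 13) against 3.5% of all. By gene the shares were 23.1% against 2.5% of tested genes. GAGGAAGT, bound by the myeloid factor PU.1, occurred in 14.8% of macrophage gene windows (4 of 27) against 2.4%. Those 4 windows belonged to 3 of the 21 genes with a promoter: Fcgr4, C1qc and Ly6c2, the last of which fell. That is 14.3% of the macrophage genes with a promoter against 3.2% of tested genes. A match describes the letters only. The 120 bases before the start are printed below, 5′ to 3′ on the strand of the gene, for genes of 4 groups picked because they hold such matches, with matches on either strand in capitals: CCAAT or ATTGG for class II, these and TTTGAA or TTCAAA for mitosis, CACGTG for lysosomes and the response element core for interferon. Genes among them that were not named above were chosen after their values were seen.
H2-Aa (chr17:34287824-34287943, minus strand): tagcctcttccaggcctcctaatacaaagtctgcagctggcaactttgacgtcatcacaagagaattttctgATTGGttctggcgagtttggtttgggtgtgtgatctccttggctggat
H2-Eb1 (chr17:34305747-34305866, plus strand): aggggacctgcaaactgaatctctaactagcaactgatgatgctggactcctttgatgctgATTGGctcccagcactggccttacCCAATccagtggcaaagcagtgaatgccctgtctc
Cdk1 (chr10:69352913-69353032, minus strand): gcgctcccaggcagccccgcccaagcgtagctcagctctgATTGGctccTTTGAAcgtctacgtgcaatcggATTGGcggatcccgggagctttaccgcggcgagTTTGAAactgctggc
Cdc20 (chr4:118437344-118437463, minus strand): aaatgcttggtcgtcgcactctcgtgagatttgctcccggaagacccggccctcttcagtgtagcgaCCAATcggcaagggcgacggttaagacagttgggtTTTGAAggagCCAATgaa
Ube2c (chr2:164769809-164769928, plus strand): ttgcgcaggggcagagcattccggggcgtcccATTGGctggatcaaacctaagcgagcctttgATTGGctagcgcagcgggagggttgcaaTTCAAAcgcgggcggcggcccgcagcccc
Glb1 (chr9:114400958-114401077, plus strand): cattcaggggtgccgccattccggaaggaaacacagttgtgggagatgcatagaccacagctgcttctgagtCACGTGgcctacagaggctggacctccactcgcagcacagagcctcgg
Lamp1 (chr8:13159041-13159160, plus strand): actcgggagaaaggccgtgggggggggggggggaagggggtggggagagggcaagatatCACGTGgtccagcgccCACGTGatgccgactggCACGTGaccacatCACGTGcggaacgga
Ctsd (chr7:142387828-142387947, minus strand): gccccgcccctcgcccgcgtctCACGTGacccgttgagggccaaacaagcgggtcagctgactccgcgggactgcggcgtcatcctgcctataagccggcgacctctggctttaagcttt
Isg15 (chr4:156200819-156200938, minus strand): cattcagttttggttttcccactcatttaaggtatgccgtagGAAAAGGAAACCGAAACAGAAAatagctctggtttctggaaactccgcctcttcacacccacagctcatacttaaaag
Oas3 (chr5:120777660-120777779, minus strand): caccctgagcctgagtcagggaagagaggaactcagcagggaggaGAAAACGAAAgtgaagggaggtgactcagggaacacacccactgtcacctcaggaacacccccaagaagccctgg

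The printed genes not named earlier moved as their groups did. They were chosen with their values known, so this is no test of the motifs. H2-Eb1, a class II chain, rose by 1.10, and Lamp1 and Ctsd, a lysosomal membrane protein and cathepsin D, rose by 0.54 and 0.78 on the log2 scale. Isg15, a ubiquitin-like modifier, went from 2.31, 2.15 and 3.46 FPKM to 4.00, 4.27 and 7.83 FPKM and Oas3, a sensor of double-stranded RNA, from 1.01, 1.60 and 1.60 FPKM to 2.2, 3.26 and 5.09 FPKM. The mitotic kinase Cdk1 fell by 0.55 and the anaphase activator Cdc20 by 0.77.

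The step before, from day 2 to day 3, shares the day 3 samples, so its values are given side by side. There 4108 of 9422 genes (43.6%) were called by limma, 2090 upward (22.2%) and 2018 downward (21.4%). Of the rises at day 4, 772 had also risen at day 3, 695 had not been called, 113 followed a fall and 107 were too low at days 2 and 3 to be tested there. Of the falls, 1066 had also fallen at day 3, 604 had not been called and 92 followed a rise. Resorption genes had a median change of 1.06 from day 2 to day 3 and 0.42 from day 3 to day 4. V-ATPase genes went from 0.57 to 0.18 and mitosis genes from -0.77 to -0.59, while class II genes went from 0.15 to 1.10 and macrophage genes from 0.10 to 0.94.

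A direct test of the difference between the steps over the 9 WT samples of days 2 to 4, added after the data were seen, called 907 of 9577 genes (9.47%), 385 with a higher change at the later step (4.02%) and 522 with a lower one (5.45%). Without the mouse pairing it called 171, and leaving out 1 mouse gave 328 to 448. Of the 33 macrophage genes 23 had a higher change at the later step and none a lower one. Of the 19 resorption genes 12 had a lower change and 1 a higher one. Itgb3, for example, changed by 2.83 and then by 0.73 (difference -2.10, limma adjusted p = 0.00126), and Ocstamp by 0.84 and then by -0.37 (difference -1.21, limma adjusted p = 0.00218). Trem2 fell by 0.73 at the earlier step and rose by 0.68 at the later one (difference 1.41, limma adjusted p = 0.00101).

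**Figure D3:**
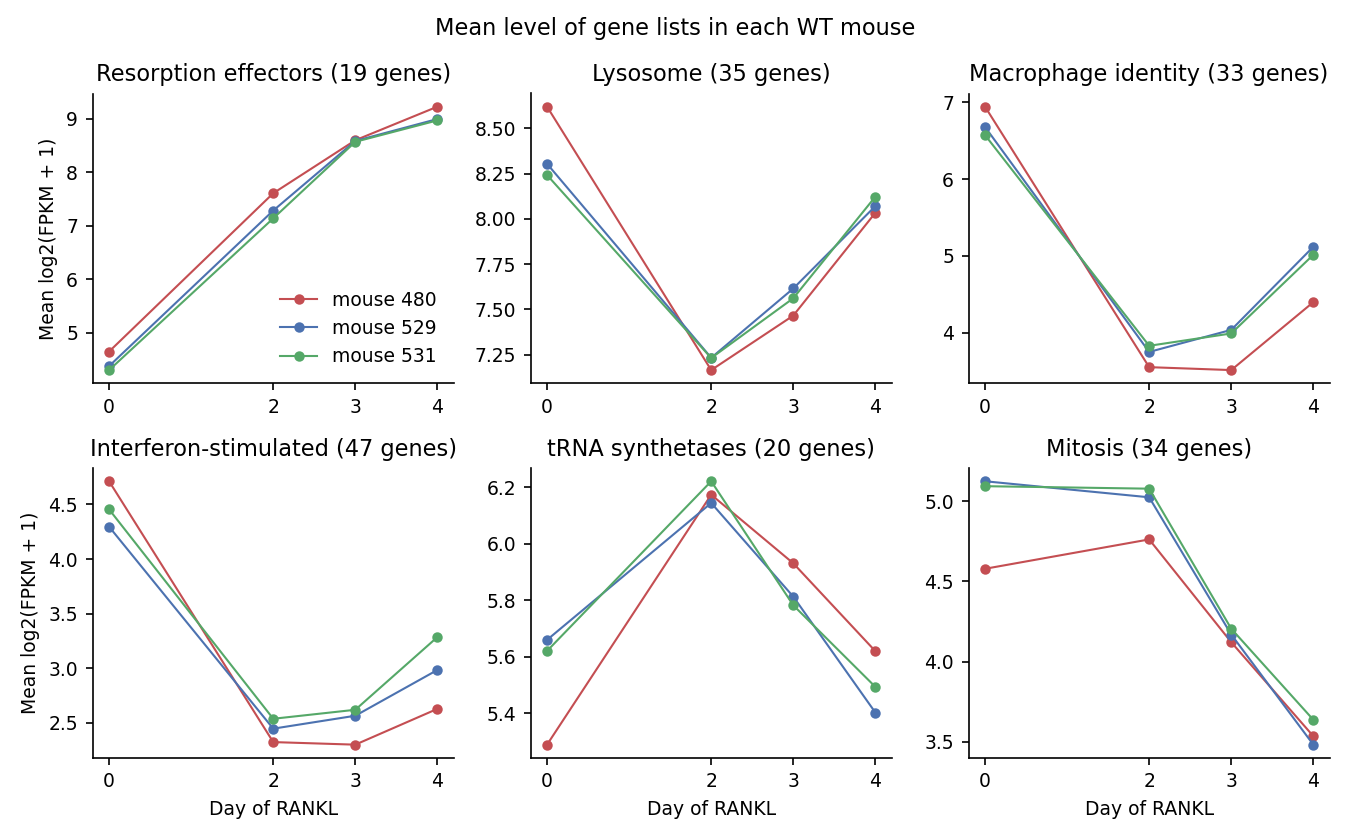
Mean log2(FPKM + 1) of 6 gene lists in each WT mouse at days 0, 2, 3 and 4 of RANKL. The macrophage list reached 4.40 to 5.12 at day 4, below its 6.57 to 6.94 at day 0, while the resorption list climbed to between 8.97 and 9.22 and the mitosis list dropped to between 3.48 and 3.64.

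The step in STING-deficient cells, which share no sample with the WT cells, called 4838 of 9457 genes (51.2%), 2432 upward (25.7%) and 2406 downward (25.4%). Of the 3449 genes called in WT, 3149 were also called in the same direction in KO, which is 91.3% of the WT calls and 65.1% of the KO calls. Across 9423 genes the changes in the 2 genotypes had a Pearson r of 0.90, a description over genes that are not independent. A limma test of the difference between the genotypes called 0 of 9536 genes (0%), with 147 at an unadjusted p under 0.05. The macrophage list had a median of 0.97 in KO against 0.94 in WT, class II genes 1.01 against 1.10, lysosomal genes 0.54 against 0.57, resorption genes 0.41 against 0.42 and mitosis genes -0.44 against -0.59.

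Interferon-stimulated genes had a median of 0.34 in KO, where 27 rose and 3 fell, against 0.50 in WT. None of them passed the test of the difference. Ifitm1 changed by 1.28 in KO and 2.00 in WT and Cthrc1 by 1.48 and 1.87 (unadjusted p = 0.000143 and 0.00585 for the difference, limma adjusted p = 0.9997 for both). On simulated data with 200 genes that differed, the same test recovered 67% of differences of 0.5 and 94% of differences of 1 on the log2 scale, and 6.94% of its calls were false. Recovery where only a few genes differ, or where genes of low abundance differ, was not simulated. The simulated noise was independent between genes and samples. In the data, the 147 of 9536 genes with an unadjusted p under 0.05 were fewer than evenly spread p-values would give. These rates may therefore not hold for the data, and the 0 calls do not show that both genotypes took the same step.

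**Figure D4:**
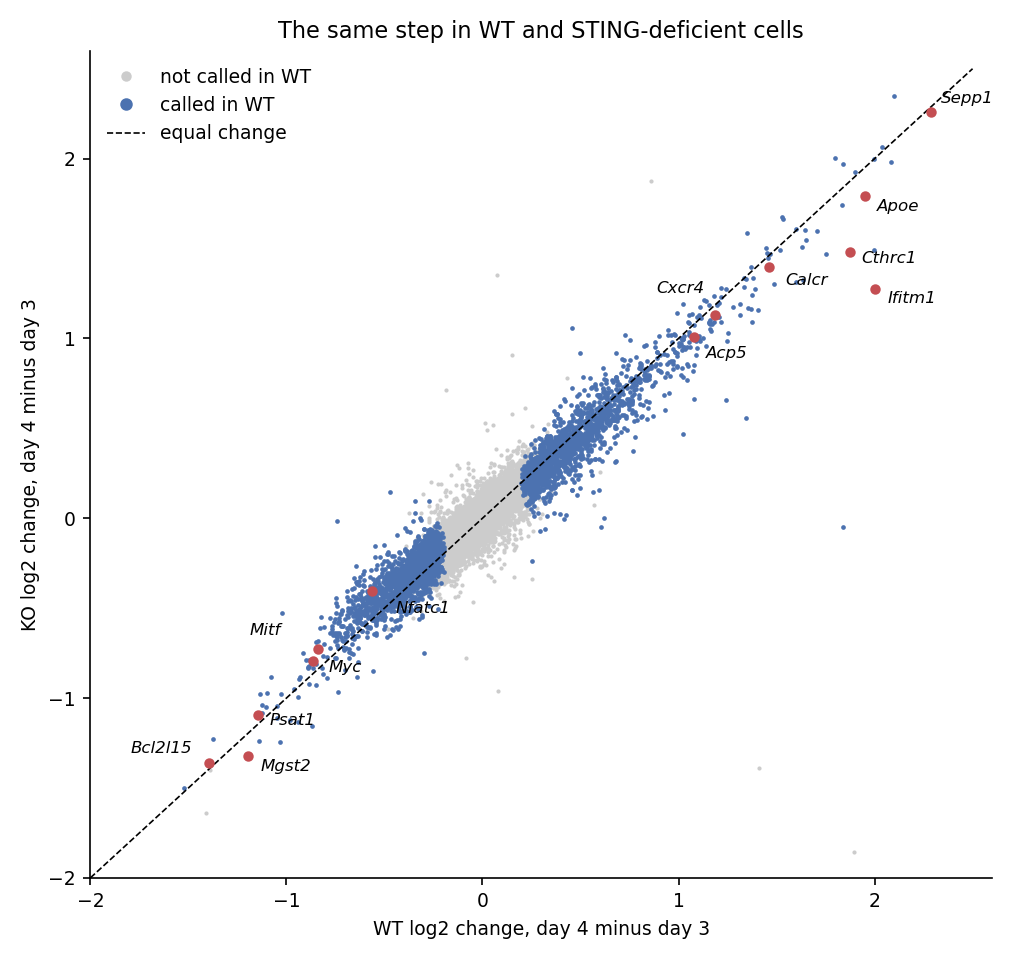
Log2 change from day 3 to day 4 in WT (horizontal) and KO (vertical), 1 point per gene, blue where called in WT, with 13 named genes in red and a dashed line of equal change. Most points lie near the line, Ifitm1 and Cthrc1 lie below it, and 7 genes fall outside the axes of -2 to 2.6.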

How the data were processed

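The authors deposited 1 table of FPKM per gene and sample, with 10721 genes and 24 sample columns, of which 0 were left unused. Reads were aligned to mm10, and the tools were HISAT2 2.0.5, Cufflinks 2.2.1 and Cuffdiff, per the submitters' processing notes. The annotation, strandedness, read depth and the rule by which the table's genes were selected are not given by these sources. An FPKM listed at 0 can be a failed estimate. The test was limma (version 3.58.1, R 4.3.3) on log2(FPKM + 1), with the mouse as a block and a mean-variance trend, two-sided and adjusted by Benjamini-Hochberg over all genes with a mean of at least 1 FPKM in either group. This scale understates changes of low genes. The comparison, the 37 gene lists and the rule for named genes were chosen with earlier results of these data known. Named were the 15 largest rises and falls that moved the same way in all 3 mice and reached 5 FPKM, the 3 called genes with the smallest adjusted p of each list, and 14 osteoclast hallmark genes. Not every gene under this rule is reported here. The numbers pair samples because they name the animal. Deviations of samples of 1 mouse correlated at 0.19, 0.01 and -0.28 in WT mice 480, 529 and 531 and between 0.26 and 0.38 in KO. The highest correlation with another mouse was -0.03, 0.35 and 0.20 in these WT mice and at most 0.09 in KO. In mice 529 and 531 it exceeded the value within the mouse, so the values there do not bear out the pairing. Of 967 list genes 864 were matched by symbol or synonym and 776 were tested in WT. On simulated data 137 of 200 changed genes were recovered, 53% of changes of 0.5 and 84% of changes of 1 on the log2 scale, and 2.84% of calls were false. Both simulations changed only genes of higher abundance. The 200 changed genes were also far fewer than the 3449 called in WT, so these rates may not hold for the data.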

Additional observations from a re-analysis of the deposited data

How the results depend on the processing

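The count of called genes in WT was 3446 with a pseudocount of 0.1, 3508 without the filter, 2810 with a filter at 5 FPKM, 3398 after centring and 3092 without the replicate block. It was 3369 with all WT RANKL days in the fit and 4376 with both genotypes. Leaving out 1 mouse gave 2221 to 4195 called genes, fewest without mouse 480. Without mouse 529, 1362 rose and 1115 fell. Of 126 named genes called, 119 were still called without the block, 115 without mouse 480, 125 without mouse 529 and 126 without mouse 531. Tnfrsf11a, called under none of these settings, had a log2 change of -0.0853 to 0.0318 when 1 mouse was left out, the upper value without mouse 531. The median of the immediate early list ran from -0.21 without mouse 531 to 0.0355 without mouse 480, against -0.15. The KO count was 3316 without the block and 3607 to 4337 without 1 mouse. The genotype difference called 0 genes without the block and 0 to 2 without 1 mouse. The added test of the steps called 912 genes with a pseudocount of 0.1, 171 without the block and 328 to 448 without 1 mouse. Fewer mice leave fewer residual degrees of freedom, and the cause of the other differences was not tested. Because depth is unknown, no counting interval is attached, and the lower depth of the day 3 sample of mouse 531 makes its low values less precise.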
